A study of Rattus norvegicus with 27 samples.

Results

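Punches of the cerebellar interpositus nucleus (IP) from 27 rats were ordered by a score of messenger RNA markers, deep cerebellar nucleus genes against granule cell genes. The 9 punches with the highest score were set beside the 9 with the lowest. The animals were selected on expression values. For each punch a score was taken as the mean log2(CPM + 0.5) of Slc17a6, Spp1, Nefh and Nefm minus the same mean of Gabra6, Fat2, Neurod1 and Zic1, where CPM is counts per 1000000 counts of the library. The 9 punches with the highest score are called high-score, the 9 with the lowest are called low-score, and the other 9 are called middle. The 8 genes of the score are left out of every comparison between these bands, which then covers 12099 genes with enough counts. Because the split was made from counts of the same libraries, the differences in gene levels between the bands are given as a description, without a test.

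All rats were Long-Evans, were cross-fostered soon after birth and were sampled on postnatal day 70. NT rats were reared normally and LB rats spent postnatal days 2 to 9 with limited bedding. The NT rats were 5 females and 7 males, and the LB rats 7 females and 8 males. Each library came from the tissue punches of 1 rat, so each holds whatever cells the punches covered.

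The cerebellar nuclei lie in the white matter below the cerebellar cortex and send its output to the rest of the brain. Their large glutamatergic neurons load vesicles with the transporter encoded by Slc17a6 and have thick axons rich in neurofilaments, whose heavy and medium chains are encoded by Nefh and Nefm. Spp1 encodes osteopontin, a secreted protein found in large projection neurons. Granule cells, the most numerous neurons of the brain, fill the inner layer of the cortex. They express Gabra6, a GABA-A receptor subunit, Fat2, a cadherin of their axons, and the transcription factors Neurod1 and Zic1.

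Promoters of 3 genes are shown because the bands are described around them. Slc17a6 and Nrgn, a calmodulin-binding protein of forebrain synapses, were high in largely different high-score punches, and Gabra6 marks the low-score band. Each runs from 250 bases before to 50 bases after the RefSeq start in build GRCr8, in the direction of the gene. Capitals mark CAGATG or CAGCTG on either strand, E-box motifs of the kind bound by neurogenic factors such as Neurod1 (CATCTG is CAGATG on the other strand).
Slc17a6 (chr1:110348197-110348496, plus strand): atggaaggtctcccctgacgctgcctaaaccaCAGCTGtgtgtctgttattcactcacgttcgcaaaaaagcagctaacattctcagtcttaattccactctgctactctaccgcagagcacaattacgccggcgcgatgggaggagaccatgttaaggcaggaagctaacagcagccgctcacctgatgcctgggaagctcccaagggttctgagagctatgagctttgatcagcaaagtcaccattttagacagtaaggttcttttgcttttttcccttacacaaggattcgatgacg
Nrgn (chr8:45452368-45452667, minus strand): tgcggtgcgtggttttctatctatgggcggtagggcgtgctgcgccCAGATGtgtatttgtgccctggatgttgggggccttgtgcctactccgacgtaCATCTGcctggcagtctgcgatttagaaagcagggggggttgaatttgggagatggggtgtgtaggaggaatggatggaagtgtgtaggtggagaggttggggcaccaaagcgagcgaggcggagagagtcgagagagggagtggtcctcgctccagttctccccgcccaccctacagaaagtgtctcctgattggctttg
Gabra6 (chr10:27327185-27327484, minus strand): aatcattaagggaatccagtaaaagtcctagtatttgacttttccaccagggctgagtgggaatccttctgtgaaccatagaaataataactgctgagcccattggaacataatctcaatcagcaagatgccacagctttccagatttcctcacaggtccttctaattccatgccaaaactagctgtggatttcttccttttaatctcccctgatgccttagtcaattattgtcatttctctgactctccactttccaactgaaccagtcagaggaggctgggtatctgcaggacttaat
The windows of Slc17a6, Nrgn and Gabra6 held 1, 2 and 0 matches. Of all 27457 promoters in the table, 28.8% held at least 1. So did 25.8% of the 9328 found for compared genes and 4 of the 19 found for granule cell genes. An entry was found for 7 of the 12 genes that led the high-score band, of which 3 held a match, and for 7 of the 12 that led the low-score band, of which 1 held a match.

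The score ran from -5.36 to 1.60. The high-score punches had scores of -3.37 to 1.60 (median -2.90), and the low-score punches -5.36 to -4.94 (median -5.09). The highest, from NT male 6112, stood 2.44 above the next, and the low-score punches lay within 0.42 of each other. There was no gap at either edge of the bands. The last high-score punch (NT male 6111) had -3.37 and the next, LB male 121, had -3.53. The first low-score punch (LB female 8022) had -4.94 and the one before it, LB male 9121, had -4.93.

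**Figure D1:**
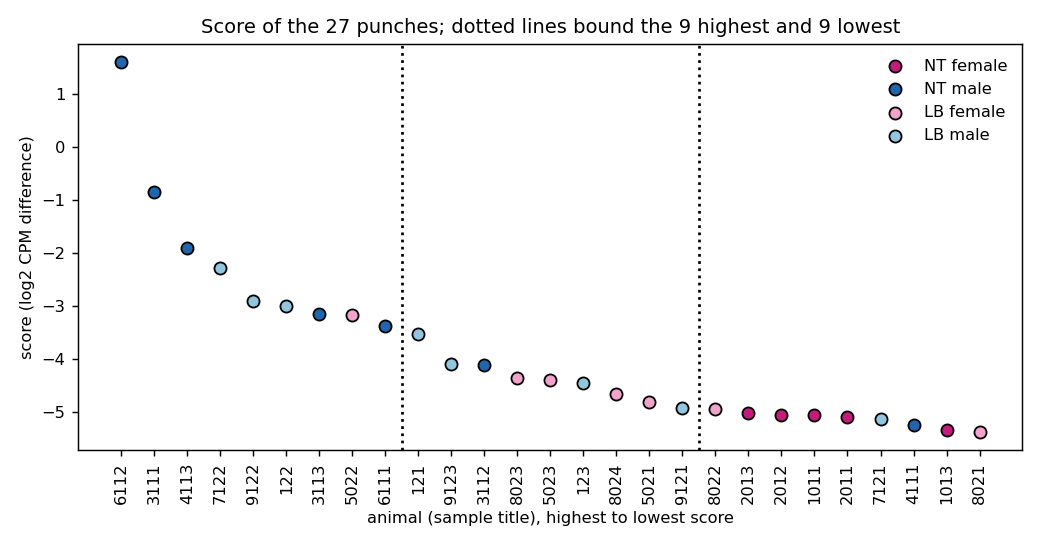
Score (log2 CPM difference, y axis) of each punch, ordered from highest to lowest and coloured by group (x axis, animal number). Dotted lines bound the 9 highest and the 9 lowest. NT male 6112 at 1.60 stands apart, and the 5 NT females lie between -5.32 and -5.01.

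The bands were not balanced by sex. The high-score band held 5 NT males, 3 LB males, 1 LB female and 0 NT females, and the low-score band held 5 NT females, 2 LB females, 1 LB male and 1 NT male. By treatment the high-score band held 4 LB and 5 NT rats, the low-score band 3 LB and 6 NT, and the middle band 8 LB and 1 NT. Eif2s3y, a Y-linked gene, therefore had 28.6 to 118 CPM in 8 high-score punches and 0.114 CPM in the LB female. A difference between the bands cannot be told apart from a difference between the sexes unless it is also seen within 1 sex, and within males the low-score band has only 2 punches.

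By group, the score had a median of -5.05 in NT females (range -5.32 to -5.01), -3.14 in NT males (-5.24 to 1.60), -4.65 in LB females (-5.36 to -3.16) and -3.81 in LB males (-5.13 to -2.28). NT females varied least (SD 0.13, n = 5) and NT males most (SD 2.27, n = 7). Animals whose numbers share all but the last digit form 10 sets, each of 1 sex and treatment. Of these, 2 sets held both a high-score and a low-score punch (NT males 4113 and 4111, and LB males 7122 and 7121).

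Depth overlapped between the bands. Total counts per library were 11836684 to 24169170 in the high-score band (median 16034036) and 13412879 to 19726889 in the low-score band (median 17613482). The means differed by 34602 counts (exact two-sided permutation test, p = 0.981, n = 9 and 9).

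The genes of the score did not all separate the bands, and their values are given with CPM from the library size, as the score takes them. Slc17a6 had 370, 58.4, 31.3, 74.5, 8.57, 7.61, 4.81, 1.504 and 11.9 CPM in the high-score punches from the highest score to the lowest, and 0.298 to 3.07 CPM in the low-score punches. Spp1 was at 430 CPM in NT male 6112 and between 25.4 and 102 CPM in the next 3, but reached 1.20 CPM in NT male 3113 and 1.496 CPM in NT male 6111, below every low-score punch. Nefh overlapped, at 264 to 1376 CPM (median 374) in the high-score band and 287 to 410 CPM (median 322) in the low-score band, with 4 high-score punches above the low-score range and 2 below it. Nefm also overlapped, at 185 to 1637 CPM (median 312) against 148 to 241 CPM (median 193), with 7 high-score punches above the low-score range. So only 4 of 9 high-score punches had much Slc17a6 or Spp1 RNA.

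The granule cell genes of the score were lower in the high-score punches, and 3 of the 4 did not overlap. Gabra6 was at 169 to 755 CPM (median 499) in the high-score band and 784 to 1321 CPM (median 1241) in the low-score band. Zic1 was at 122 to 272 CPM (median 149) against 292 to 506 CPM (median 453), and Neurod1 at 230 to 595.1 CPM against 595.7 to 1025 CPM. Fat2 overlapped in part, with 284 to 1258 CPM against 1219 to 1913 CPM. In bulk tissue, fewer cells of a type and less RNA per cell cannot be told apart.

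All further levels are CPM with library sizes normalized by the TMM method of edgeR, which corrects for differences in RNA composition. Differences are of mean log2(CPM + 0.5), high-score minus low-score, and a gene is said to stand apart where none of the 9 high-score values reached into the range of the 9 low-score values.

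Genes of deep nucleus neurons were mostly higher in mean in the high-score band, but few stood apart. Tbr1, Lhx2, Lhx9, Lmx1a, Meis2, Cbln4, Cabp7, Pcp4l1, Slc6a5 and Pvalb are expressed in cerebellar nuclei, though not there alone, and had a median difference of 2.07 beside 0.01 for all genes. Among these 10 genes, 9 had a higher mean, 2 stood apart above the low-score band (Pcp4l1 and Cabp7), 0 stood apart below it, and the background over all 12099 genes was 2.66% above and 2.21% below. Within males, where the low-score band has only 2 punches, 6 of the 10 stood apart above, as did 7.79% of all genes. Pcp4l1 encodes a small IQ-motif protein related to Purkinje cell protein 4. Cabp7, a calcium-binding protein, was at 13.2 to 102 CPM against 7.49 to 12.7 CPM, and its values touched when size factors of DESeq2 were used. Slc6a5, the glycine transporter of inhibitory nucleus neurons, had a difference of -0.29, and Pvalb, the calcium buffer parvalbumin, one of 0.26, both with overlap.

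Tbr1 and Lhx2 of that list were higher in the 4 punches with most Nrgn than in the other 5 high-score punches. Tbr1, a transcription factor of both cortical and cerebellar nucleus neurons, was at 163 CPM in NT male 6111, 106 CPM in LB male 122, 101 CPM in NT male 3113 and 32.3 CPM in LB male 7122, and at most 3.86 CPM in the other 5 high-score punches. In NT male 6112, the punch with most Slc17a6, Tbr1 was at 3.86 CPM, inside the low-score range of 1.20 to 4.33 CPM. Nrgn was at 1490 CPM in NT male 6111, 1122 CPM in LB male 7122, 1050 CPM in NT male 3113 and 857 CPM in LB male 122. It was at 25.9 to 97.6 CPM in the other 5 high-score punches and at 3.16 to 38.3 CPM in the low-score band.

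The high-score band thus held punches of different make-up. Slc17a6 was above 20 CPM in 4 punches (6112, 3111, 4113 and 7122) and Nrgn was above 500 CPM, a limit set after the values were seen, in 4 (7122, 122, 3113 and 6111), with only LB male 7122 in both sets. LB male 9122 and LB female 5022 were in neither. The median difference of the deep nucleus list was 1.18 without the 4 punches above 500 CPM of Nrgn. It was 2.02 without the 4 above 20 CPM of Slc17a6, beside 2.07 in the full bands. Single genes of the list did change, with 7 higher and 3 lower in mean, beside 9 and 1 in the full bands. Lmx1a and Lhx9 were highest in NT male 6112. In LB male 122 and NT males 3113 and 6111 they did not exceed the low-score range. The median thus kept its size, but not every gene of the list kept its direction. Among middle punches, LB male 9123 had 493.1 CPM and LB male 123 had 313 CPM of Nrgn, and LB male 121 had 22.1 CPM (by library size) of Slc17a6. For this reason the bands are named here by the score and not as tissue.

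**Figure D2:**
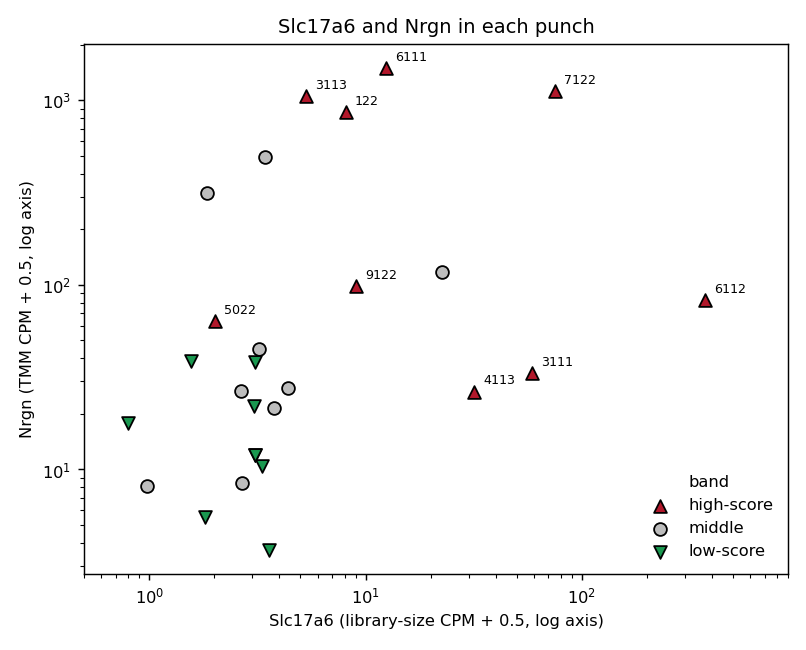
Slc17a6 (x axis, library-size CPM + 0.5) against Nrgn (y axis, TMM CPM + 0.5) in the 27 punches, both on log axes, with symbols by band and animal numbers beside the high-score punches. NT males 6112, 3111 and 4113 lie to the right with Nrgn of at most 82.3 CPM, and NT males 3113 and 6111 and LB male 122 lie at the top with Slc17a6 of at most 11.9 CPM.

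Single punches stood out by genes of other tissue. Slc5a7, the choline transporter of cholinergic neurons, was at 131 CPM in NT male 6112 and at most 2.33 CPM in every other high-score punch. Ttr, the thyroxine carrier made by choroid plexus, was at 6342 CPM in NT male 4113, against 1.96 to 241 CPM in the other high-score punches and 4.40 to 69.3 CPM in the low-score punches. Folr1, a folate receptor of the same epithelium, was also highest in NT male 4113, at 31.6 CPM. LB female 5022, the only female in the high-score band, had the second-highest level of Mbp, 32422 CPM. Genes of the Hox clusters, which mark the hindbrain behind the cerebellum and the spinal cord, were too low to be compared, with a summed level of at most 1.39 CPM in any of these punches.

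Across all genes, 155 stood apart above the low-score band with at least a 2-fold difference (1.28% of 12099) and 64 stood apart below it (0.529%). Without the minimum fold, 322 genes (2.66%) stood apart above and 267 (2.21%) below. The balance between the directions depended on the scaling, since library size alone gave 111 above and 111 below and upper-quartile scaling gave 178 and 39. The counts also rested on who was in each band. Where LB male 9121, which had missed the low-score band by 0.01, replaced 1 of its members, 119 genes stood apart above and 9 below.

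**Figure D3:**
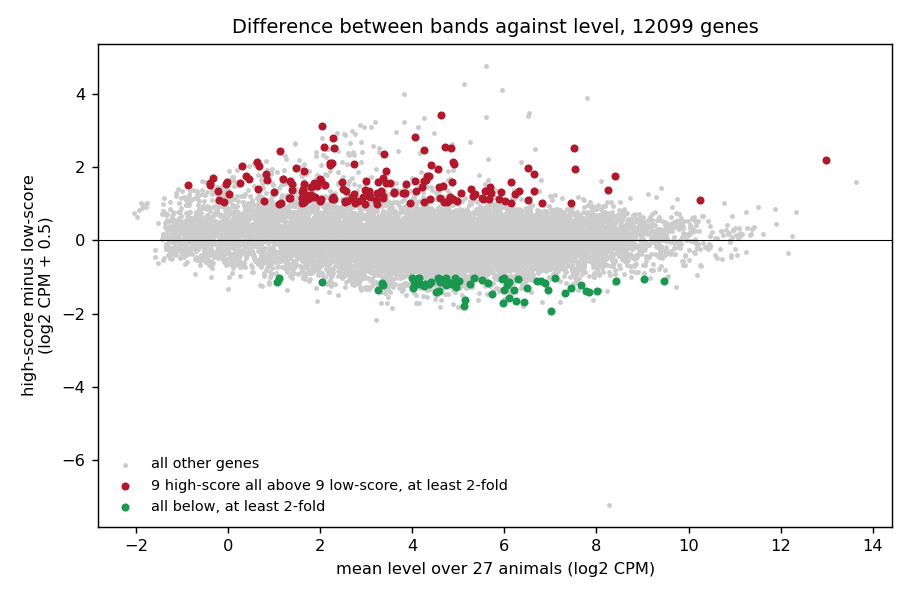
Difference between the bands (y axis, log2 CPM + 0.5, high-score minus low-score) against mean level over all 27 rats (x axis, log2 CPM) for 12099 genes. Red points are the 155 genes that stood apart above and green points the 64 that stood apart below, each by at least 2-fold, and the lowest grey point is the X-linked LOC100911498, whose bands overlapped.

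The 12 leading genes above the low-score band, among those with a mean of at least 5 CPM, differed by 2.06 to 3.42 on the log2 scale. LOC691995 led, at 6.80 to 263 CPM (median 51.8) in the high-score band and 2.41 to 4.24 CPM in the low-score band. Pcp4l1, at chr13:89542377-89565813 of rn6, was at 11.9 to 81.4 CPM (median 30.3) against 2.60 to 7.63 CPM (median 3.64), a difference of 2.82 (SD on the log2 scale 0.95 and 0.45). It was highest in NT males 6112 and 3111 and in LB male 7122. The 2 leading genes were thus at their highest in a punch rich in Slc17a6, NT male 6112.

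Ncald and Crym were at their highest in punches rich in Nrgn. Ncald, the calcium sensor neurocalcin delta, was at 146 to 736 CPM (median 288) against 41.4 to 79.9 CPM (median 56.8), a difference of 2.53. Crym, a thyroid hormone-binding crystallin, was at 11.99 to 177 CPM (median 40.3) against 3.98 to 9.66 CPM, a difference of 2.53. Crym reached 177 CPM in LB male 122 and 12.2 CPM in NT male 6112, which is close to the top of the low-score range.

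The other leading genes encode synaptic, enzymatic and noncoding products. Grin2b, an NMDA receptor subunit, was at 10.5 to 92.3 CPM against 3.65 to 9.55 CPM, and Ptpn5, a striatum-enriched tyrosine phosphatase, at 9.65 to 88.9 CPM against 3.06 to 7.21 CPM. Gsta1, a glutathione transferase, varied less within the bands, at 26.7 to 93.4 CPM against 9.34 to 14.6 CPM (SD on the log2 scale 0.52 and 0.24). Nrsn2, Adhfe1, Olfm2 and Vstm2b completed the set with differences of 2.55, 2.37, 2.14 and 2.09, though Adhfe1 and Vstm2b overlapped with library size alone.

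Bc1, a short noncoding RNA carried into dendrites, was the most abundant of the leading genes. It was at 7274 to 20144 CPM (median 13635) in the high-score band and 1664 to 6320 CPM (median 2417) in the low-score band, a difference of 2.20. The next highest in the low-score band after LB male 7121 (6320 CPM) were NT female 2013 with 4591 CPM and NT male 4111 with 4333 CPM. Bc1 has a single exon of 153 bases and related copies across the rat genome, and how reads with several matches were counted is not stated, so its level is uncertain.

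Some genes differed more but did not stand apart, because the high-score punches disagreed. Cck, which encodes the neuropeptide cholecystokinin, was at 280 to 394 CPM in the 4 punches rich in Nrgn, 18.04 and 18.5 CPM in LB male 9122 and LB female 5022, and 5.40 to 9.52 CPM in the other 3, against 0.133 to 11.1 CPM in the low-score band. Nrgn differed by 3.91 in the same way. Meis2, a homeobox transcription factor of many brain regions, was at 99.7 CPM in NT male 6112 and 37.3 to 69.1 CPM in the 4 punches rich in Nrgn, and at 0.400 CPM in LB female 5022. In NT males 3111 and 4113, also rich in Slc17a6, Meis2 was at 21.9 and 8.40 CPM. Meis2 was thus high in all 4 punches rich in Nrgn but not in every punch rich in Slc17a6.

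The 12 leading genes below the low-score band differed by -1.93 to -1.40. Cacnb4, a subunit of voltage-gated calcium channels, was at 15.9 to 137 CPM (median 70.0) in the high-score band and 143 to 316 CPM (median 211) in the low-score band. The lowest values were those of LB female 5022 (15.9 CPM), NT male 3113 (21.4 CPM) and LB male 9122 (22.6 CPM). Kcnk10, a potassium leak channel, was at 8.44 to 27.4 CPM against 42.4 to 67.1 CPM, and Pde5a, which breaks down cyclic GMP, at 12.4 to 57.8 CPM against 77.6 to 128 CPM.

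Regulators and scaffolds made up most of the rest. Ndst3, a heparan sulfate sulfotransferase, differed by -1.79, Cpeb4, which regulates translation through the tails of messenger RNAs, by -1.67, and Cdon, a cell-surface partner of hedgehog signalling, by -1.47. St18, a zinc finger transcription factor, differed by -1.59, Ank1, a membrane skeleton adaptor, by -1.40 and Sphkap, an anchor of protein kinase A, by -1.40. Pik3r3, Eml5 and Fnip2 differed by -1.65, -1.44 and -1.42, and these 3 overlapped with upper-quartile scaling.

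The median of the middle band, which the comparison leaves out, fell between those of the high-score and low-score bands for 304 of the 322 genes that stood apart above and 260 of the 267 that stood apart below. These genes were chosen for bands that do not overlap, which leaves a wide interval for a middle median, so the counts are no sign of a graded pattern. Ncald had a middle median of 81.6 CPM, Bc1 6699 CPM and Cacnb4 108 CPM. For Pcp4l1 the middle median of 7.64 CPM was close to the low-score maximum of 7.63 CPM.

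Granule cell genes outside the score were lower in the high-score band throughout. Of 23 such genes, 23 had a lower mean, 6 stood apart below (2 of them by at least 2-fold) and 0 above, beside 2.21% and 2.66% of all genes, and the median difference was -0.66. Reln, the secreted guidance protein reelin, was at 315 to 615 CPM (median 502) against 724 to 1177 CPM (median 1009). Il16, Crtam, Tiam1, En2 and Zic2 also stood apart, by -1.10, -1.10, -0.92, -0.69 and -0.67. With upper-quartile scaling Zic2 and Crtam overlapped. Cbln3, a granule cell partner of cerebellin, had the largest difference at -1.38 but overlapped (113 to 272 CPM against 194 to 659 CPM). Its lowest low-score value was that of NT male 4111. Rbfox3, which is expressed in most neurons, differed by -0.19. The summed level of the list was 4165 to 11377 CPM in the high-score band and 10162 to 12606 CPM in the low-score band.

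**Figure D4:**
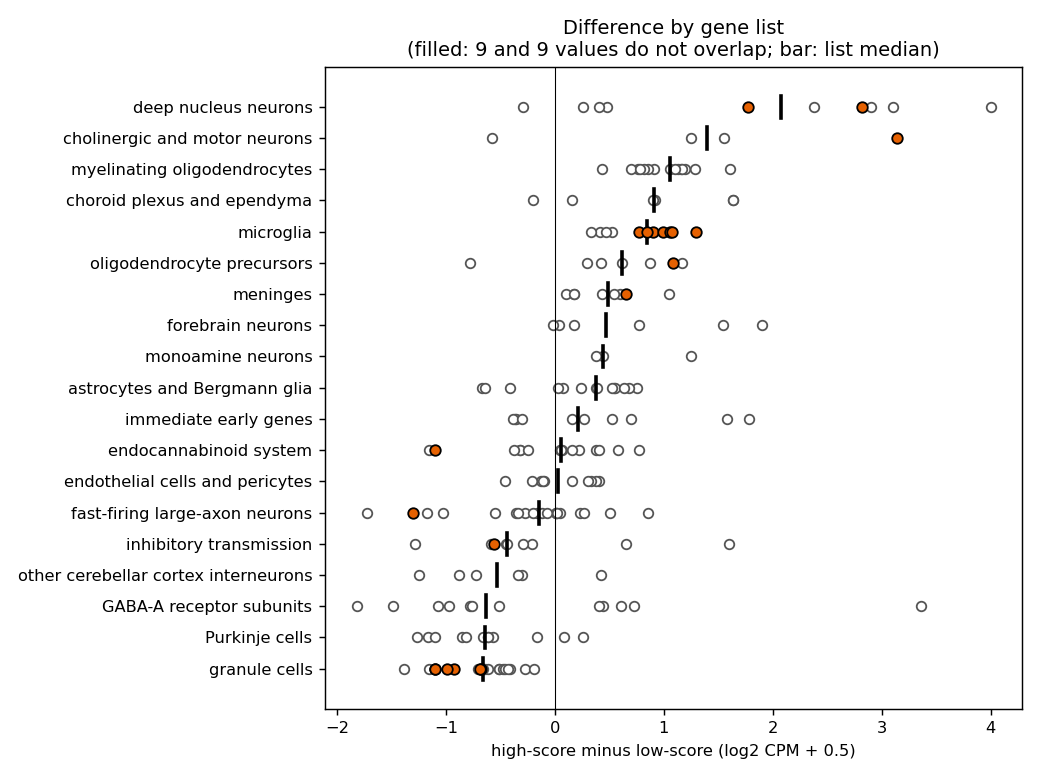
Difference between the bands (x axis, log2 CPM + 0.5, high-score minus low-score) for each compared gene of 19 lists, ordered by list median (black bar). Filled points stood apart and open points overlapped. Granule cell genes lie below 0 with 6 filled points, and microglial genes lie above 0 with 7.

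Purkinje cell genes were lower in mean but overlapped. Of 12 genes, 10 had a lower mean and 0 stood apart in either direction, with a median difference of -0.64. Itpr1, the inositol trisphosphate receptor of Purkinje cells, was at 339 to 907 CPM against 653 to 2706 CPM, a difference of -1.26, and Pcp4 differed by 0.26. Among 6 genes of other cortical interneurons, 0 stood apart in either direction, and Kit, a receptor of molecular layer interneurons, differed by -1.25.

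Genes of fast-firing neurons with large axons did not follow Nefm. Of 20 genes, 8 had a higher and 12 a lower mean in the high-score band, 0 stood apart above and 1 below, and the median difference was -0.14. Nefl, the light neurofilament chain, was highest in difference at 0.85. It overlapped, at 154 to 977 CPM in the high-score band and 138 to 209 CPM in the low-score band. Syt2, the calcium sensor of fast transmitter release, stood apart below, at 60.9 to 157 CPM against 163 to 467 CPM. Kcna2, an axonal potassium channel, differed by -1.72 with overlap.

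Inhibitory genes differed in both directions. Of 9 genes of GABA and glycine transmission, 2 had a higher and 7 a lower mean, 1 stood apart below and 0 above, and the median difference was -0.44. Gad1, which makes GABA, stood apart below with a small difference of -0.56 (370 to 495 CPM against 516 to 738 CPM), and Gad2, its paralog, differed by -1.29 with overlap. Glra1, the glycine receptor subunit of brainstem and deep nuclei, was at 25.7 CPM in NT male 3111 and 24.5 CPM in NT male 6112, at 3.47 and 3.41 CPM in NT male 4113 and LB male 7122, and at most 0.755 CPM in the other 5 high-score punches. The low-score punches had 0.107 to 0.458 CPM, so the 4 punches rich in Slc17a6 lay well above them. Of 12 GABA-A receptor subunits, 0 stood apart, but Gabra5, a subunit of hippocampal and cortical neurons, differed by 3.36 and Gabrb2 by -1.82.

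Microglial genes stood apart most often among the lists. Of 11 genes, 11 had a higher mean in the high-score band, 7 stood apart above and 0 below, beside 2.66% and 2.21% of all genes, and the median difference was 0.85. The complement gene C1qb was at 22.8 to 50.3 CPM (median 34.3) in the high-score band and 12.8 to 21.7 CPM (median 16.4) in the low-score band, and C1qa and C1qc also stood apart, by 0.99 and 0.85. Aif1, a microglial calcium-binding protein, was at 15.4 to 26.8 CPM (median 18.3) against 5.91 to 12.3 CPM (median 7.13), a difference of 1.30 (SD on the log2 scale 0.28 and 0.32).

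Genes of microglial surface proteins differed in whether they stood apart. Trem2, Tmem119 and Csf1r, the receptor of a microglial growth factor, stood apart by 1.07, 0.90 and 0.78. Cx3cr1, the fractalkine receptor, overlapped at 7.13 to 19.9 CPM against 5.68 to 8.67 CPM. P2ry12, a receptor for ADP, overlapped at 2.40 to 19.7 CPM against 4.99 to 9.15 CPM, with NT male 3113 and LB female 5022 below every low-score punch. Itgam and Ptprc also overlapped. The 7 genes stood apart under each of the 4 scalings. The summed level of the list was 204 to 291 CPM in the high-score band and 111 to 152 CPM in the low-score band, so the bands did not overlap in it.

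Myelin genes were higher in mean but not in every punch. All 15 genes had a higher mean, 0 stood apart, and the median difference was 1.06. Mbp, the major basic protein of myelin, was at 7783 to 35747 CPM (median 24012) against 3983 to 10870 CPM (median 5870). It was at 24012 to 35747 CPM in 5 high-score punches (6112, 3111, 4113, 9122 and 5022) and at 7783 to 14912 CPM in the 4 rich in Nrgn. Without those 4 punches, 10 of the 15 myelin genes stood apart above the low-score band, where 6.89% of all genes did. Olig2, a transcription factor of the oligodendrocyte lineage, stood apart in the full bands at 33.8 to 73.4 CPM against 17.6 to 32.0 CPM, though not with library size alone. It was the 1 of 7 genes of the oligodendrocyte precursor list that stood apart, and that list had a median difference of 0.62.

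Astrocyte, vessel and meningeal genes mostly overlapped. Of 14 genes of astrocytes and Bergmann glia, 11 had a higher mean and 0 stood apart, and the median difference was 0.38, with Gfap, their intermediate filament, at 0.76 and Slc1a3, the glutamate transporter abundant in Bergmann glia, at -0.67. Of 10 genes of endothelial cells and pericytes, 5 had a higher and 5 a lower mean, and 0 stood apart. Their median difference was 0.03, which became -0.07 with library size alone. Of 8 meningeal genes, 8 had a higher mean and 1 stood apart (Islr, 10.2 to 14.8 CPM against 4.23 to 9.56 CPM, though not with library size alone), and the median difference was 0.49. Igf2 differed by 1.05 with overlap.

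Prph, an intermediate filament of neurons with peripheral axons, stood apart at a low level, with 2.54 to 55.7 CPM against 0.140 to 0.458 CPM. It was highest in NT male 6112, which also had the most Slc5a7. Of 4 compared genes of cholinergic and motor neurons, Prph was the 1 that stood apart. Of 6 genes of choroid plexus and ependyma 5 had a higher mean and 0 stood apart (median difference 0.91), and of 3 genes of monoamine neurons 3 had a higher mean and 0 stood apart (median difference 0.45).

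Of 6 compared forebrain genes, 5 had a higher mean (4 with library size alone) and 0 stood apart, and the median difference was 0.47. Without the 4 punches rich in Nrgn this median was 0.01. Ppp1r1b, which is abundant in striatum, was at 149 to 398 CPM against 212 to 255 CPM and differed by -0.02. Immediate early genes, which report recent neuronal activity, had a median difference of 0.21 and 0 that stood apart. This median was -0.61 without the 4 punches rich in Nrgn and 0.96 without the 4 rich in Slc17a6, so its sign depended on which punches were kept. Egr3 was highest in NT male 6111 at 27.3 CPM.

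Endocannabinoid genes, the subject of the study, mostly overlapped. Of 15 genes, 9 had a higher and 6 a lower mean, 0 stood apart above and 1 below, and the median difference was 0.06 (-0.04 with library size alone). Cnr1, the main cannabinoid receptor of neurons, was at 211 to 654 CPM (median 423) in the high-score band and 669 to 1105 CPM (median 960) in the low-score band, a difference of -1.10 (SD on the log2 scale 0.49 and 0.24). The highest value in the high-score band was that of LB male 122 and the lowest in the low-score band that of NT male 4111. Ptgs1 and Ptgs2, which encode cyclooxygenases, differed by 0.77 and -1.15, both with overlap.

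Most lists kept the sign of their median when 4 of the 9 high-score punches were left out. Without the 4 punches with Nrgn above 500 CPM, 339 genes stood apart above by at least 2-fold and 149 below, and without the 4 with Slc17a6 above 20 CPM, 267 and 232 did. Of the 11 microglial genes 8 and 7 stood apart above, where 6.89% and 6.36% of all genes did. Of the 23 granule cell genes 6 and 6 stood apart below, where 3.99% and 5.25% of all genes did. The sign turned for the immediate early genes and the endocannabinoid genes (-0.07) without the punches rich in Nrgn, and for the genes of endothelial cells and pericytes (-0.06) without those rich in Slc17a6.

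Within males, 8 high-score punches were set against only 2 low-score punches, so that 7.79% of all genes stood apart above and 7.84% below. Of 11 microglial genes 8 stood apart above, and of 23 granule cell genes 10 stood apart below. The GABA-A receptor subunits had a median difference of 0.25 in males and -0.63 in all animals. The sign also turned for the fast-firing neuron genes, from -0.14 to 0.06, and for the endothelial and pericyte genes, from 0.03 to -0.12.

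Genes that stood apart below were longer than those that stood apart above. The median exon length was 3952 bases for the 267 genes below, 1682 bases for the 322 genes above and 2197 bases for all compared genes. In the 20% of genes with the shortest exons (60 to 1355 bases) 117 stood apart above and 8 below, and in the 20% with the longest (3687 to 23521 bases) 28 stood apart above and 147 below. The median difference fell from 0.34 in the shortest 20% to -0.26 in the longest 20%. Of the genes described above, Reln has 11462 bases of exon, Itpr1 9757, Aif1 657, Cck 702 and Bc1 153.

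The balance of long and short genes also varied between punches. Each gene was centred over the 27 rats, and the median of the shortest 20% was subtracted from that of the longest 20%. This value was 0.11 to 0.69 (median 0.35) in the low-score punches and -0.81 to 0.24 (median -0.26) in the high-score punches. It was lowest in LB female 5022 (-0.81) and LB male 9122 (-0.51), and in NT males 6112 and 6111 (0.24 each) it lay within the low-score range. Its part in the differences between the bands was not tested.

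**Figure D5:**
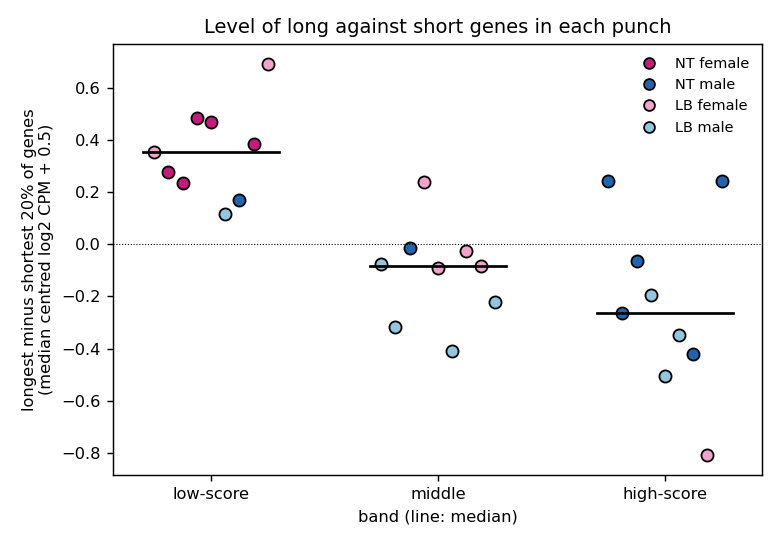
Median level of the longest 20% of genes minus that of the shortest 20% (y axis, centred log2 CPM + 0.5) in each punch, by band (x axis) and coloured by group, with lines at the band medians. The low-score punches lie between 0.11 and 0.69, and 7 of 9 high-score punches lie below all of them.

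The labels of sex and treatment did not enter the score, so genes could be tested between them. Between males and females, averaged over NT and LB, 3546 of 12107 genes (29.3%) passed an adjusted p of 0.05 in the quasi-likelihood test of edgeR with Benjamini-Hochberg adjustment. Males had the higher level in 2050 (16.9%) and females in 1496 (12.4%). When the score was added to the model as a covariate, 8 genes passed (males higher in 6). The covariate was built from the same counts and is unevenly spread over the sexes. The rats behind both contrasts are the same, so the values are given side by side.

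In the test of sex, 7 of the 8 genes of the score passed, all but Nefh. Slc17a6 had a log2 fold change of 3.76 (SE 0.82, adjusted p = 0.00271 in edgeR) and Gabra6 one of -0.62 (SE 0.21, adjusted p = 0.0314 in edgeR), positive where males were higher. Over all genes tested, 16.9% passed with the higher level in males and 12.4% with the higher level in females. Of 23 granule cell genes 13 were higher in females and 0 in males. Of 11 microglial genes 8 were higher in males and 0 in females, and of 15 myelin genes 12 were higher in males and 0 in females. All 8 compared meningeal genes were higher in males. Between the score bands all 8 also had a higher mean in the high-score band. Of these, 1 stood apart, an unlike criterion that 2.66% of all genes met above.

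Single genes are given for both contrasts. Nrgn had a log2 fold change of 4.08 between males and females (SE 0.86, adjusted p = 0.00227 in edgeR), beside 3.91 between the bands. Bc1 had 1.46 (SE 0.31, adjusted p = 0.00244 in edgeR) beside 2.20, and Aif1 0.97 (SE 0.17, adjusted p = 0.00091 in edgeR) beside 1.30. Cnr1 had -0.52 (SE 0.18, adjusted p = 0.0343 in edgeR) beside -1.10. Zic2, with -0.29 (SE 0.12, adjusted p = 0.0657 in edgeR) between the sexes, did not pass there and stood apart between the bands by -0.67.

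Between LB and NT, averaged over sex, 1 of 12107 genes (0.00826%) passed in edgeR, the integrin Itgb4, which was lower in LB rats, and 1804 had an unadjusted p under 0.05. With DESeq2, 103 of 2014 genes with an adjusted p passed, of which 103 were higher and 0 lower in LB rats. None of the 24 leading genes of the bands passed in edgeR. Slc17a6 had a log2 fold change of -1.21 (SE 0.73, adjusted p = 0.434 in edgeR), and Gabra6 one of 0.0057 (SE 0.22, adjusted p = 0.991 in edgeR), positive where LB rats were higher. The score had a median of -4.38 in 15 LB rats (range -5.36 to -2.28) and -4.55 in 12 NT rats (range -5.32 to 1.60).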

How the data were processed

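Messenger RNA from IP punches of 27 rats was sequenced. Per the labels and the submitters' processing notes, reads were aligned to rn6 with STAR 2.5.2b and counted on genes with featureCounts (Subread 1.5.1). The authors left out samples of low RNA integrity and deposited raw counts of 17321 genes, without normalization, and exon lengths in bases. Annotation release, strand and multiple matches are not given in the sources used here.

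Counts were filtered with filterByExpr (minimum count 10, minimum total 15), which left 12107 genes, and scaled by TMM (edgeR 4.0.16, R 4.3.3). Sex and treatment were tested with the quasi-likelihood test in 1 model of 4 groups, with DESeq2 1.42.0 as an alternative. The tests and comparison were tested on simulated data. Depth was compared in SciPy 1.17.1. Total counts ran from 11836684 to 24169170 per library, and their number limits precision for counting error only. Of 80 pairs within groups, 0 were identical (lowest chi-square per degree of freedom 8.45). The labels do not say whether rats of a group shared a litter.

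The 12 largest differences in each direction among genes that stood apart with a mean of at least 5 CPM are named. Named genes of the 20 lists were drawn from the extremes and first 4 genes of each list, not all of which are named. Nrgn, Cck, Pvalb, Cbln4, Cabp7, Itgb4, Eif2s3y, LOC100911498, the granule cell genes Reln, Il16, Crtam, Tiam1, En2 and Zic2, the microglial genes C1qa, C1qb, C1qc, Trem2 and Csf1r, and Olig2 and Islr were named after their values were seen. The bands, genes and lists were chosen with earlier results of these data known. A pair of genes of these lists is not reported here.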

Additional observations from a re-analysis of the deposited data

Results flagged for a closer look

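Each value named in the text was checked in both bands for a punch far from the other 8 (Dixon's test on the log2 scale), which chance alone marks in about 1 in 20 groups. Of 158 groups, 2 were marked. Slc5a7 in NT male 6112, at 131 CPM, lay far above the other high-score punches. Olig2 in NT male 4111, at 32.0 CPM, lay far above the other low-score punches, and was just under the lowest high-score value of 33.8 CPM.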

How the results depend on the processing

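The counts of genes that stood apart by at least 2-fold (155 above, 64 below) were sensitive to the choice of animals. The score without Spp1 gave 88 above and 0 below, without Nefh 63 and 1, without Nefm 70 and 2, and with Slc17a6 minus Gabra6 alone 30 and 0. Without Gabra6, Neurod1 or Zic1 in the score 9 stood apart below in each case. With 7 punches a band 239 stood apart above, and with 13 a band 0 above and 0 below. Males of the same bands gave 353 and 109, LB rats of the same bands 464 and 581, which leave few punches to overlap. Settings chosen after seeing the data gave 117 above and 1 below for the 5 highest against the 5 lowest males. They gave 339 and 149 without the punches rich in Nrgn, and 267 and 232 without those rich in Slc17a6. With no minimum fold 322 and 267 stood apart. Library size alone gave 111 below and upper-quartile scaling 39. Leaving out 1 punch gave 148 to 203 above and 48 to 114 below, with 114 without LB male 7121, 108 without NT male 6111 and 103 without NT male 4111. The differences of 77 single genes were also followed. With the 5 highest against the 5 lowest males, 39 of them moved by at least 1 SD within the bands. In males of the same bands 27 moved that far, and with 13 punches a band 17 did. No other setting moved more than 8.

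The difference in total counts was -168575 with 13 punches a band and ran from -877570 to 663991 when 1 punch was left out. Genes differing by sex numbered 2805 to 5125 with 1 rat left out and 8 with the score as a covariate, where Slc17a6 turned to -0.28 (adjusted p = 0.787 in edgeR), being part of the score. Genes differing by treatment numbered 103 with DESeq2 and 1 to 330 with 1 rat left out, the most without LB female 8021 and 3 without LB female 8023. The cause was not tested.

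No paired analysis was possible because the labels give no replicate number shared between groups.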
